A study of Mus musculus with 18 samples.

Results

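The kallikrein-related peptidases Klk5 to Klk14 were followed in sorted skin cells of mice with a psoriasis-like disease. They were taken by gene symbol, which gave 10 of the 23951 genes in the expression table. Kallikrein-related peptidases are secreted serine proteases that are made as inactive precursors and activated by removal of a short propeptide, often by another member. In the epidermis they are known for desquamation, the shedding of corneocytes, because they cut the desmosomal proteins that hold the cornified layer together. They are also known to process antimicrobial peptides and to activate the receptor PAR2, and the inhibitor LEKTI, the product of Spink5, holds several of them in check.

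RNA-seq was performed on 18 libraries from 6 mice, with 3 mice in each of 6 groups. DKO* mice carried K5-Cre-ERT, floxed c-Jun and JunB and the mT/mG reporter, so that basal cells in which Cre had acted were marked by GFP and those in which it had not were marked by Tomato (Tom). Control (Co) mice carried K5-Cre-ERT and mT/mG, their c-Jun and JunB genes were wild-type or heterozygous, and all mice were on a mixed background, of both sexes and 8 weeks old, and received 4 daily injections of 2 mg tamoxifen before ear skin was collected at day 7. CD45- CD49f-high cells were sorted as CD34+ bulge hair follicle stem cells (HF-SC) or CD34- basal keratinocytes (b-KC), and each cell type of DKO* was split into GFP and Tom. The K5 promoter drives Cre in basal cells of the epidermis and the follicle, and the reporter marks Tom cells of DKO* mice as cells of the same diseased skin in which Cre had not acted. Both cell types of Co came from mice 810, 825 and 828, and all 4 DKO* populations came from mice 814, 815 and 817; values below are given in that order of mice. Levels are FPKM, fragments scaled by transcript length and library size, as the authors deposited them. They are bulk values, in which fewer cells of a type and less RNA per cell cannot be told apart.

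All 10 members lie on the plus strand in a run on chromosome 7, from position 50945788 to 51106551 in NCBIM37 (mm9), a span of 160764 bases. Their order is Klk14, Klk13, Klk12, Klk11, Klk10, Klk9, Klk8, Klk7, Klk6 and Klk5, and no other protein-coding gene lies among them. A non-coding gene on the minus strand, 2310002F09Rik, shares exon sequence with Klk14 and Klk8, and the libraries do not mark strand. It was at 0.0989 to 0.402 FPKM in the 18 libraries, so its reads matter for Klk14, which was at the same level in several libraries, more than for Klk8. No 51-base window of any member's transcript came within 2 mismatches of another kallikrein transcript.

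AP-1, the transcription factor to which c-Jun and JunB belong, binds the TRE, a motif with the letters TGANTCA in a loose form and TGAGTCA or its complement TGACTCA in the strict form. In the 2000 bases before the annotated gene start the loose form occurred at 11 positions in 6 of the 10 members, against 43.6% of 22380 protein-coding genes. The strict form made up 7 of the 11 positions and occurred in 5 members, against 28.3% of genes. The 300-base RefSeq promoters (GRCm38.p6), from 250 bases before to 50 after the start, were found for all 10 members, and the loose form was in 0 of the 10, against 8.97% of 27025 genes. The matches are descriptions of sequence, and binding was not measured. The positions are printed here because these genes are followed in cells that lost the AP-1 subunits, with the motif in capitals (both strands were searched, NCBIM37 plus strand shown). Klk14 has 2 positions, Klk13 2, Klk12 2, Klk10 3, Klk9 1 and Klk8 1, and Klk11, Klk7, Klk6 and Klk5 have 0. The position before Klk8 lies within the annotated span of its neighbour Klk9, which ends at 51052126.
Klk14 (chr7:50944644-50944674): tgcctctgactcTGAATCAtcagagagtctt
Klk14 (chr7:50944899-50944929): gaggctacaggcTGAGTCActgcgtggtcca
Klk13 (chr7:50966838-50966868): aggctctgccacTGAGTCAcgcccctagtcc
Klk13 (chr7:50966874-50966904): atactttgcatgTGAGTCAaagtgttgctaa
Klk12 (chr7:51022731-51022761): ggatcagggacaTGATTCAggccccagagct
Klk12 (chr7:51024045-51024075): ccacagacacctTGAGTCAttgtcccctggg
Klk10 (chr7:51035614-51035644): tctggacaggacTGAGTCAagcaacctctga
Klk10 (chr7:51035758-51035788): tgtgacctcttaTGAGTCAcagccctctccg
Klk10 (chr7:51035840-51035870): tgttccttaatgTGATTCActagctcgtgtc
Klk9 (chr7:51046508-51046538): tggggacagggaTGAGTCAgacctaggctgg
Klk8 (chr7:51052088-51052118): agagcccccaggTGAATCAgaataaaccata

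The deleted genes were checked first. Jun was at 835 to 1086 FPKM in the 6 Co libraries, 29.6 to 88.4 in the 6 GFP libraries and 163 to 614 in the 6 Tom libraries, and Junb was at 436 to 772, 37.2 to 77.5 and 208 to 402. Jun was also lower than in Co in Tom of HF-SC by a log2 difference of 1.30 (adjusted p = 0.0155, limma) and in Tom of b-KC by 1.94 (adjusted p = 0.00114). Junb was lower in Tom of b-KC by 1.27 (adjusted p = 0.00308, limma). The Tom label marks cells in which Cre had not acted, and why Jun and Junb were lower there was not tested. The bulge markers matched the HF-SC label, with 7 of 8 higher in HF-SC Co than in b-KC Co, although 1 HF-SC Co library listed Krt15 at 0 and Krt14 at 0 in 3 b-KC libraries of DKO* mice. Of the leukocyte markers, Ptprc, Cd3e and Csf3r were under 1 FPKM in every library, while Itgam and Cd207 reached 1.60 and 1.07 FPKM in HF-SC GFP. Fcer1g was at most 0.667 FPKM in Co, 1.09 to 9.40 in HF-SC GFP, 5.6 to 6.42 in HF-SC Tom and at most 1.00 in b-KC of DKO* mice. Endothelial markers stood out in HF-SC Tom, where the 8 genes summed to 403 to 1202 FPKM, against 44.5 to 76.1 in HF-SC Co, 1.12 to 27.2 in HF-SC GFP and at most 6.08 in b-KC. Steps in the low values implied 16520000 to 25980000 reads per library, so that 3 reads correspond to 0.0662 to 0.176 FPKM for these genes, a floor that covers counting error only.

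In DKO* mice 5 to 8 of the 10 members were higher than in Co in each comparison, Klk5 was lower in 3 of the 4, and Klk7 was called in none. In the limma test, with an adjusted p under 0.05 as the threshold, 8 of the 10 members were higher for GFP than for Co among HF-SC, against 18.5% of the 12751 genes tested, and 0 were lower, against 20.0%. The count at an unadjusted p under 0.05 was 9 members, all higher, and the share of all genes at that threshold was not counted. In HF-SC Tom 6 were higher (22.3% of genes) and Klk5 was lower (22.1%). Among b-KC, 6 members were higher in GFP than in Co (20.3%) and Klk5 was lower (21.3%), while in Tom 5 were higher (22.6%) and Klk5 was lower (23.3%). The members' median difference in log2(FPKM + 1) was 2.38 for GFP and 1.34 for Tom among HF-SC, and 1.35 and 0.91 among b-KC, against -0.05 to -0.02 over all genes tested. These 4 comparisons share Co libraries in pairs. All 10 members passed the filter on low values (1 FPKM in 3 libraries), but 4 of them did so only through DKO* libraries: Klk12 and Klk14 reached 1 FPKM in 0 of the 6 Co libraries, and Klk6 and Klk13 in 1. These 4 had to be higher in some DKO* group, so the counts and medians over the 10 members are descriptions and are not read against the share of all genes. Of the 6 members that passed on Co libraries alone, 4 were higher for GFP and 3 for Tom among HF-SC, and 3 and 2 among b-KC, and Klk5 was the 1 that was lower in the last 3 of these comparisons.

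With an adjusted p under 0.01 and an absolute log2 difference of at least 2, 5 members were called in HF-SC GFP against Co, where 3.07% of genes were called in either direction. The same rule called 2 members in HF-SC Tom (4.09%) and, among b-KC, 3 for GFP (1.87%) and 3 for Tom (2.75%). Klk10 and Klk13 were called, higher, in all 4 of these comparisons. Klk13, and Klk6 in both GFP counts, passed the filter only through DKO* libraries, so these counts too are descriptions and are not read against the shares. The plot of differences from Co along the locus shows where the members diverge.

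**Figure D1:**
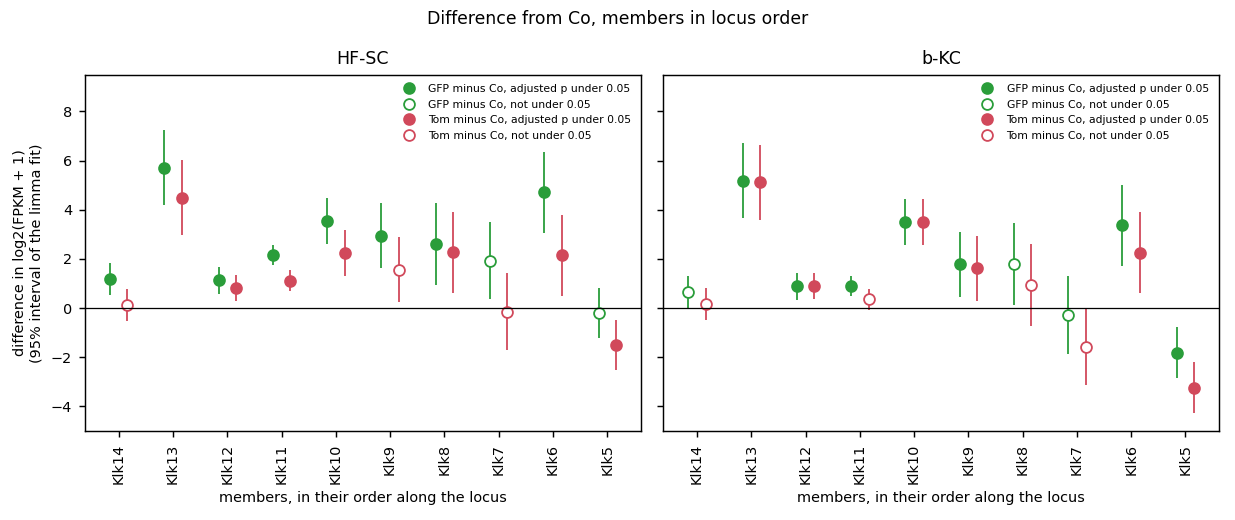
Difference from Co in log2(FPKM + 1) for each member (x axis, in locus order) in HF-SC and b-KC, with GFP in green, Tom in red, the 95% interval of the limma fit as a line, and filled points for an adjusted p under 0.05. Klk13 has the largest difference in every comparison, from 4.5 to 5.72, and Klk5 is the member that lies below 0 in all 4, with 3 of the 4 called.

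Klk5 and Klk7 are the classical desquamation proteases of the stratum corneum, a trypsin-like enzyme and the chymotrypsin-like enzyme that it activates. Among HF-SC, Klk5 was at 6.93, 11.5 and 7.58 FPKM for Co, 11.2, 11.1 and 2.82 for GFP and 1.12, 2.43 and 4.07 for Tom. The b-KC values were 31.7, 21.5 and 17.2 for Co, 7.96, 9.46 and 2.35 for GFP and 0.838, 2.37 and 1.63 for Tom. The 3 Tom libraries lay under every Co library in both cell types, and in b-KC the GFP libraries did too. On the log2 scale Klk5 fell by 1.51 in the Tom fraction of HF-SC (SE 0.48, adjusted p = 0.0191, limma). Among b-KC it fell by 1.81 for GFP (adjusted p = 0.00804) and by 3.23 for Tom (adjusted p = 9.12e-05, limma). In b-KC Tom the mean of 1.61 ± 0.768 (SD, n = 3) FPKM was 0.0687 of the Co mean of 23.5 ± 7.43. In HF-SC GFP the difference of -0.20 had a 95% interval from -1.22 to 0.83, which takes in both a fall and a rise. The HF-SC Tom call was lost without the filter on low values and without mouse 814, 815 or 825 (adjusted p up to 0.0981).

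Klk7 was not called in any comparison with Co. Among HF-SC it was at 4.42, 14.9 and 7.27 FPKM for Co, 72.2, 62.4 and 7.57 for GFP and 4.85, 12.1 and 5.91 for Tom, so that Tom overlapped Co. Basal keratinocytes had 55.2, 31.9 and 25.1 for Co, 46.3, 52.1 and 9.60 for GFP and 9.35, 18.9 and 8.02 for Tom. The mean difference of HF-SC GFP from Co was 1.93 (interval 0.36 to 3.51, adjusted p = 0.0506, limma), and the GFP library of mouse 817 lay within the Co libraries. Without mouse 817 the difference was 2.93 (adjusted p = 9.8e-05, limma). In b-KC Tom all 3 libraries lay below the Co libraries, with a difference of -1.57 (interval -3.14 to 0.01, adjusted p = 0.0963, limma). It was called without mouse 817 (adjusted p = 0.0187) and in a fit of only the groups compared (adjusted p = 0.01, limma).

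Klk14, a trypsin-like protease that is known to activate PAR2, ranked from 8 to 10 among the 10 members by mean FPKM in each group. Its b-KC libraries were listed at 0 in all 3 Co mice and had 1.03, 0.511 and 0.259 FPKM for GFP and 0.0371, 0.319 and 0 for Tom. Among HF-SC it was at 0.422, 0 and 0.129 for Co, 3.88, 1.58 and 0.497 for GFP and 0.476, 0.240 and 0.122 for Tom. GFP thus did not overlap Co in either cell type, while Tom did. It was called in HF-SC GFP alone among the comparisons with Co, by 1.18 (adjusted p = 0.00634, limma). Klk14 passed the filter only through 3 GFP libraries, so this call and the contrast with Tom are descriptions. The values outside GFP were near the level of 3 reads and of the overlapping non-coding gene, so no fold is given. Without mouse 814 or 815, and with rescaled libraries, Klk14 did not pass the filter. In b-KC GFP the difference of 0.65 missed the threshold (adjusted p = 0.0983, limma), and with a pseudocount of 0.1 FPKM in place of 1 it passed it (adjusted p = 0.0098, limma). Klk12, another trypsin-like member, was listed at 0, 0.288 and 0 FPKM in HF-SC for Co and was at 1.83, 2.06 and 0.543 for GFP and 0.910, 0.736 and 1.08 for Tom. The b-KC values were 0.0926, 0.142 and 0.0527 for Co, 1.52, 1.18 and 0.506 for GFP and 0.862, 1.74 and 0.652 for Tom. Each of the 12 DKO* libraries lay above every Co library, and Klk12 was higher in all 4 comparisons with Co, by 0.81 to 1.13 on the log2 scale (adjusted p from 0.0024 to 0.0167, limma). Leaving out mouse 810, 814 or 828 ended the call in HF-SC Tom, mouse 814 or 828 that in b-KC GFP and mouse 815 that in b-KC Tom (adjusted p up to 0.0837).

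Klk13, Klk6 and Klk9 were low in Co, and each DKO* library lay above every Co library of its cell type. Klk13, a trypsin-like member, was at 0.0944, 0.104 and 0.318 FPKM in HF-SC for Co, 103, 78.4 and 27.1 for GFP and 34.9, 20.5 and 22.7 for Tom. The b-KC values were 1.79, 0.342 and 0.617 for Co, 154, 118 and 14.9 for GFP and 90.5, 105 and 25 for Tom. No DKO* library came near a Co library. Among HF-SC the means differed 403-fold for GFP and 151-fold for Tom, and among b-KC 104-fold and 80.3-fold. The 3 HF-SC Co values correspond to about 12 reads in all. The b-KC Co values correspond to about 63, of which about 42 were in mouse 810, so all 4 ratios are imprecise. On the log2 scale Klk13 was higher by 5.72 and 4.5 in HF-SC and by 5.19 and 5.12 in b-KC (adjusted p from 1.82e-05 to 0.00013, limma).

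Klk6, first known as a protease of the brain (neurosin), was at 0.0391, 0.515 and 0.363 FPKM in HF-SC for Co, 74.1, 64.5 and 6.80 for GFP and 4.10, 6.54 and 3.94 for Tom. For b-KC the libraries had 2.28, 0.390 and 0.613 for Co, 37.0, 36.9 and 4.62 for GFP and 6.47, 14.4 and 5.81 for Tom. The groups did not overlap with Co in any of the 4 comparisons, and in HF-SC the 3 GFP libraries also lay above the 3 Tom libraries. Among HF-SC, Klk6 was higher by 4.71 for GFP (adjusted p = 0.000217, limma) and 2.16 for Tom (adjusted p = 0.0342). The b-KC differences were 3.37 for GFP (adjusted p = 0.00336) and 2.24 for Tom (adjusted p = 0.0274). The calls in Tom were lost without the filter on low values and when 1 mouse was left out, mouse 810, 814, 815, 825 or 828 in HF-SC (adjusted p up to 0.108) and mouse 815, 825 or 828 in b-KC (up to 0.122).

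Klk9, a chymotrypsin-like member, was at 0.694, 0.835 and 0.445 FPKM in HF-SC for Co, 22.3, 24.1 and 2.51 for GFP and 4.22, 3.89 and 3.58 for Tom. Its b-KC levels were 1.96, 1.92 and 1.39 for Co, 13.4, 14.6 and 2.81 for GFP and 6.94, 12.7 and 4.42 for Tom. Every DKO* library was above every Co library of its cell type. For GFP of HF-SC the difference was 2.95 (adjusted p = 0.0016, limma), and it was 1.79 in b-KC GFP (adjusted p = 0.031) and 1.61 in b-KC Tom (adjusted p = 0.0448). In HF-SC Tom a difference of 1.57 missed the threshold (adjusted p = 0.0518, limma), and with mouse as a random block it passed it (adjusted p = 0.0318). Both b-KC calls were lost without the filter and when any mouse but 817 was left out (adjusted p up to 0.142 in GFP and 0.17 in Tom), and that in Tom also with rescaled libraries (adjusted p = 0.0529).

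Klk10, Klk11 and Klk8 were expressed in Co, and they were called higher in 4, 3 and 2 of the 4 comparisons with Co. Klk10, known from breast epithelium as a gene that tumours lose, was at 15.8, 13.0 and 9.27 FPKM in HF-SC for Co, 196, 157 and 121 for GFP and 56.9, 41.2 and 103 for Tom. The b-KC values were 16.8, 11.2 and 8.21 for Co, 262, 181 and 60.6 for GFP and 147, 173 and 111 for Tom, and no DKO* library overlapped Co. As ratios of mean FPKM it was 12.4-fold higher for GFP and 5.28-fold for Tom among HF-SC (adjusted p = 1.68e-05 and 0.000774, limma), and 13.9-fold and 11.9-fold among b-KC (adjusted p = 4.11e-05 and 2.31e-05). Only Klk10 and Klk13 stayed past an adjusted p of 0.05 in all 4 comparisons under every alternative setting. Single calls of other members held in every setting too, among them the 3 of Klk11 (adjusted p up to 0.0301, limma).

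Klk11, a trypsin-like member also made in brain and prostate, was at 10.3, 16.7 and 9.81 FPKM in HF-SC for Co, 58.1, 58.3 and 53.8 for GFP and 22.0, 25.6 and 34.7 for Tom. For b-KC the libraries had 49.5, 51.3 and 39.9 for Co, 101, 90.9 and 74.0 for GFP and 57.5, 69.9 and 54.3 for Tom. Its GFP libraries agreed closely, and HF-SC GFP had a mean of 56.7 ± 2.53 (SD, n = 3) FPKM. Among HF-SC the difference from Co was 2.16 for GFP (SE 0.20, adjusted p = 8.56e-07, limma) and 1.11 for Tom (adjusted p = 0.000322). Among b-KC it was 0.90 for GFP (adjusted p = 0.00246) and 0.36 for Tom (interval -0.06 to 0.78, adjusted p = 0.145), where all 3 libraries still lay above Co.

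Klk8, or neuropsin, a trypsin-like protease of brain and epidermis, was at 3.73, 5.22 and 4.13 FPKM in HF-SC for Co, 60.2, 48.6 and 10.1 for GFP and 41.3, 31.8 and 11 for Tom. Its b-KC levels were 18.6, 18.1 and 17.0 for Co, 132, 114 and 17.3 for GFP and 52.4, 68.3 and 11.7 for Tom. The b-KC libraries of mouse 817 lay within or below Co, while those of mice 814 and 815 lay far above it. Among HF-SC, Klk8 was higher for GFP by 2.60 (adjusted p = 0.0155, limma) and for Tom by 2.26 (adjusted p = 0.0285). Leaving out mouse 810, 814, 815 or 828 ended the first call (adjusted p up to 0.0829), and leaving out any mouse but 817, or the filter, ended the second (adjusted p up to 0.107). In b-KC the differences of 1.79 in GFP (adjusted p = 0.0772, limma) and 0.93 in Tom (adjusted p = 0.344) missed the threshold, and without mouse 817 they were 2.72 (adjusted p = 2.32e-08) and 1.69 (adjusted p = 1.81e-06). With mouse as a random block Klk8 was called in b-KC GFP (adjusted p = 0.0233, limma), as was Klk7 in HF-SC GFP (adjusted p = 0.0368).

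**Figure D2:**
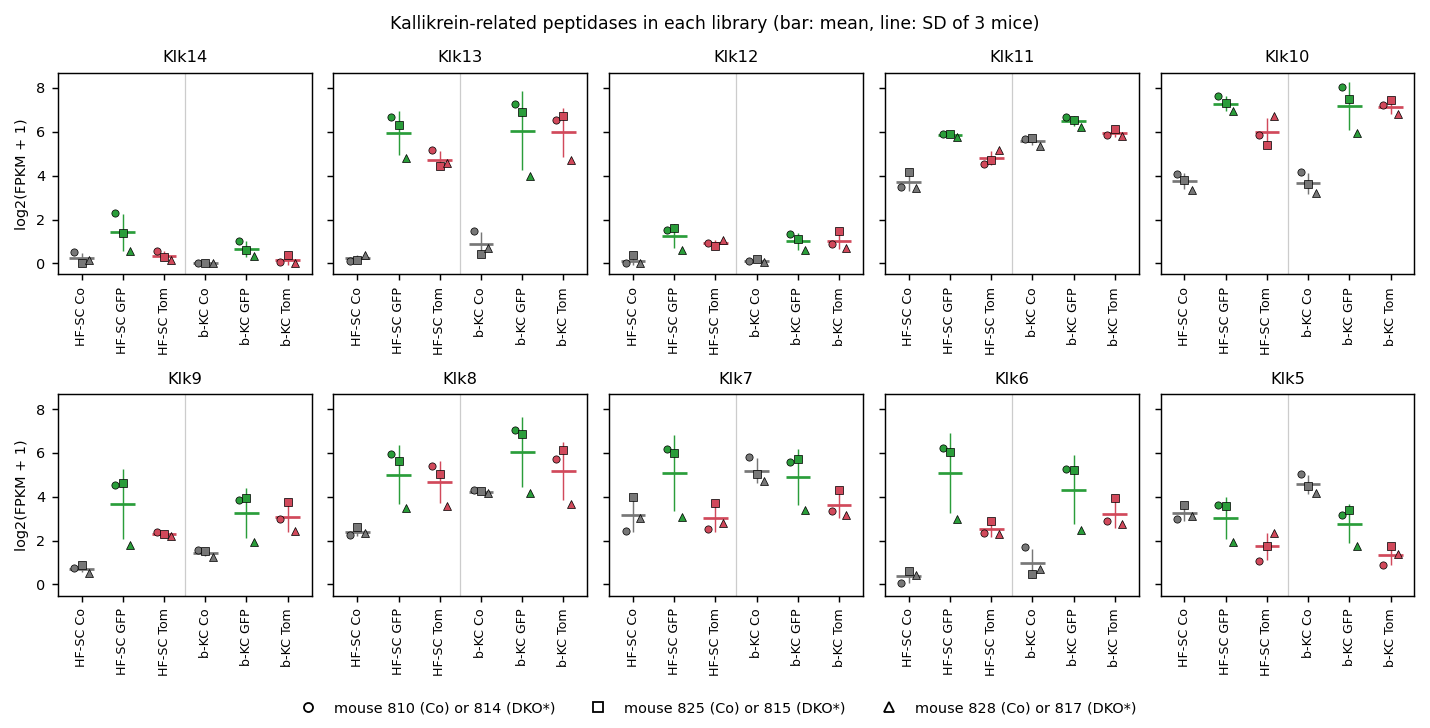
log2(FPKM + 1) of each member in every library (1 panel per gene, in locus order), with Co in grey, GFP in green and Tom in red, marker shapes for the 3 mice of a group, horizontal bars for group means and vertical lines for the SD of 3 mice. Klk13, Klk10 and Klk12 lie above Co in every DKO* library of their cell type, Klk5 lies below Co in b-KC, and the triangles of mouse 817 are the lowest GFP points in all 10 panels.

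Mouse 817 stood apart from the other DKO* mice. Its library had the lowest value of the 3 for 10 of 10 members in HF-SC GFP and in b-KC GFP, for 9 of 10 in b-KC Tom and for 4 of 10 in HF-SC Tom. The same count over all genes was not made, so it is not read as particular to the family. Other genes also differed in mouse 817. The 12 suprabasal and granular markers summed to 3228 FPKM in HF-SC GFP of mouse 817, against 5298 and 4700, and to 8302 in b-KC GFP, against 9700.4 and 9766. The 7 upper follicle and sebaceous markers summed to 228 against 535 and 593 in HF-SC GFP, and to 433 against 1176 and 1082 in b-KC GFP. In HF-SC Tom the suprabasal sum of mouse 817 was the highest of the 3, at 3322 against 3241 and 2840. The 8 bulge markers had their highest sum in mouse 817 in all 4 populations: 6215 FPKM against 3962 and 4935 for GFP and 6853 against 3775 and 4520 for Tom among HF-SC, and 1480 against 667 and 720 for GFP and 1243 against 403 and 438 for Tom among b-KC. The 8 endothelial markers summed to 403 in HF-SC Tom of mouse 817, against 1202 and 1189, and to 1.12 in HF-SC GFP, against 15.3 and 27.2. The 6 fibroblast markers summed to 13.9 against 95.4 and 115 in HF-SC Tom, and to 19.4 against 68.6 and 120.5 in HF-SC GFP. The part of these differences in the kallikrein values was not tested. Without mouse 817 the comparisons with Co called 9 members higher for GFP (24.5% of genes) and 7 for Tom (29.3%) among HF-SC, and 8 (30.0%) and 6 (28.7%) among b-KC. Each of these counts includes members that passed the filter only through DKO* libraries, so they are descriptions and are not read against the shares. The members called lower were Klk5 in HF-SC Tom (29.8%) and b-KC GFP (30.2%), and Klk5 and Klk7 in b-KC Tom (29.5%).

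Whether GFP and Tom cells of the same skin differed was asked next. In HF-SC, Klk11 and Klk14 were higher in GFP than in Tom, with 2.83% of genes higher, and 0 members were lower, against 5.80%. Klk14 passed the filter only through 3 GFP libraries, so its call is a description and gives no weight to the count. Klk11 was higher in 3 of 3 mice, by 1.04 (SE 0.20, adjusted p = 0.00229, limma), and Klk14 in 3 of 3, by 1.07 (adjusted p = 0.0396). Leaving out mouse 814 or 815 ended the Klk11 call (adjusted p = 0.0992 and 0.11). The Klk14 call did not hold with mouse as a fixed block (adjusted p = 0.0928), nor with a pseudocount of 0.1 FPKM, without the filter on low values, in a fit of only the 2 groups, or when mouse 810, 825 or 828 was left out (adjusted p up to 0.287). Each of the 10 members was higher in GFP than in Tom in mouse 814 and in mouse 815, with median differences of 1.74 and 1.85 on the log2 scale. How many of all genes were higher in these mice was not counted. In mouse 817, 6 members were higher and Klk5, Klk8, Klk9 and Klk12 were lower, with a median of 0.24. With mouse as a random block 5 members were called higher, against 5.61% of genes, namely Klk6, Klk7, Klk10, Klk11 and Klk14. With mouse as a fixed block, which compares GFP and Tom within each mouse, Klk11 alone was called, against 1.16% of genes. Without mouse 817 all 10 were called higher, against 11.7% of genes, and that fit rests on 2 mice.

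In b-KC no member was called between GFP and Tom, where 1.19% of genes were higher and 0.518% were lower in limma. There were 2 members, Klk5 and Klk11, with an unadjusted p under 0.05, and the share of all genes at that threshold was not counted. Klk5 was higher in GFP in 3 of 3 mice, by 9.5-fold, 3.99-fold and 1.44-fold, with a difference of 1.42 (interval 0.40 to 2.45, adjusted p = 0.181, limma). For Klk10 and Klk13 the differences were 0.01 (interval -0.93 to 0.95) and 0.07 (interval -1.46 to 1.60), which take in sizeable changes in either direction. Without mouse 817, Klk5, Klk6, Klk7 and Klk8 were called higher in GFP, against 4.90% of genes. The plot of GFP against Tom within each mouse shows the split between mice.

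In HF-SC the 8 endothelial markers were all lower in GFP than in Tom (5.80% of all genes), and 3 of the 12 suprabasal markers were higher (2.83%). The part of these markers in the kallikrein values was not tested.

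**Figure D3:**
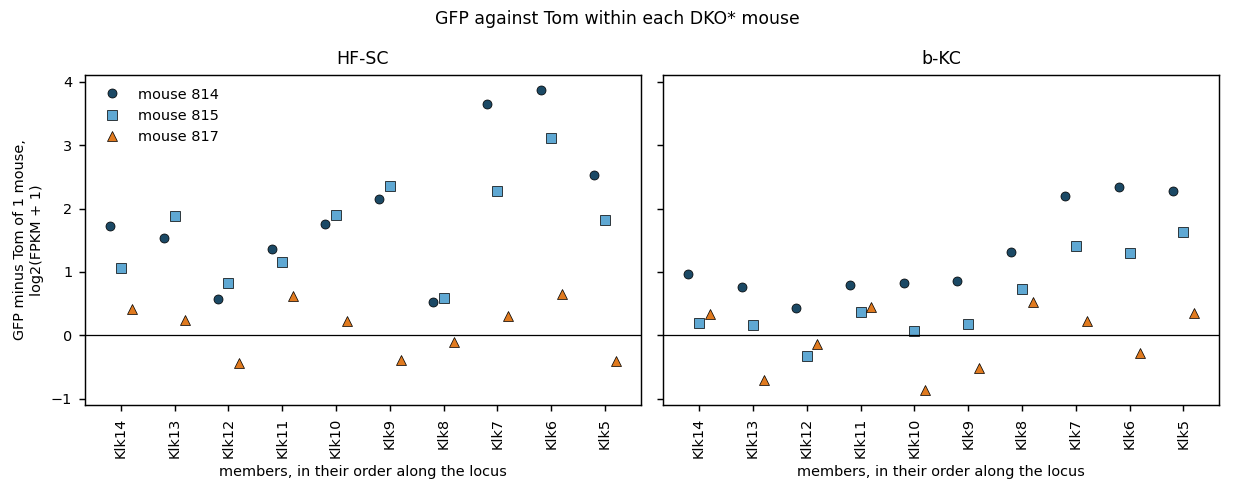
Difference between the GFP and the Tom library of the same DKO* mouse in log2(FPKM + 1) for each member (x axis, in locus order), for HF-SC and b-KC, with 1 marker per mouse. In HF-SC the points of mice 814 and 815 are above 0 for all 10 members and those of mouse 817 lie around 0. In b-KC the points of mouse 817 are above 0 for 5 members and below 0 for 5.

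In control skin Klk5, Klk7 and Klk11 were lower in HF-SC than in b-KC. These were 3 of 10 members, near the 27.3% of all genes that were lower, and 0 members were higher, against 24.6%. For Klk11 the difference in log2(FPKM + 1) was -1.88 (adjusted p = 1.31e-06, limma), a level of 12.3 ± 3.84 FPKM in HF-SC and 46.9 ± 6.17 in b-KC (SD, n = 3 each). Klk7 was lower by 2.03 (adjusted p = 0.0319, limma) and Klk5 by 1.33 (adjusted p = 0.0305), and both calls were lost without the filter on low values and without mouse 810 or 828, Klk5 also without mouse 825 and with a pseudocount of 0.1 FPKM (adjusted p up to 0.266). Klk10 did not separate the cell types, with a difference of 0.09 (interval -0.85 to 1.03). With mouse as a fixed block, which compares the cell types within each control mouse, 6 members were lower in HF-SC, against 36.1% of genes, with Klk8 (adjusted p = 1.86e-05), Klk9 and Klk13 added. Granular and suprabasal markers moved the same way. Of 12 such genes 9 were lower in HF-SC Co, and they summed to 2692 to 3247 FPKM there and 14858 to 17843 in b-KC Co. Their part in the kallikrein differences was not tested.

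Marker lists were set beside the changes from Co. In HF-SC GFP 5 of the 12 suprabasal and granular genes were higher (18.5% of all genes) and 0 lower (20.0%), with sums of 3228 to 5298 FPKM against 2692 to 3247. In HF-SC Tom 4 were higher (22.3%) and 3 lower (22.1%), with sums of 2840 to 3322. In b-KC GFP 0 were higher and 4 lower (21.3% of all genes were lower), with sums of 8302 to 9766 against 14858 to 17843. In b-KC Tom 0 were higher and 6 lower (23.3%), with sums of 6461 to 8854. The 7 upper follicle and sebaceous markers summed to 228 to 593 FPKM in HF-SC GFP and 222 to 242 in HF-SC Tom, against 162 to 198 in HF-SC Co, and to 433 to 1176 in b-KC GFP and 260 to 519 in b-KC Tom, against 924 to 1239 in b-KC Co. The 8 bulge markers summed to 667 to 1480 for GFP and 403 to 1243 for Tom among b-KC, against 3194 to 3353 for Co. Of the 8, only 2 were called lower in b-KC GFP (21.3% of all genes) and 5 in b-KC Tom (23.3%). In HF-SC they summed to 3962 to 6215 for GFP and 3775 to 6853 for Tom, against 2510 to 14067 for Co. There 5 of the 8 were lower in GFP (20.0% of all genes) and 7 in Tom (22.1%). The leukocyte list, of which Cd74 was called higher in all 4 comparisons, summed to 89.9 to 806 FPKM in the 12 DKO* libraries and 3.7 to 7.49 in the 6 Co libraries. In DKO* libraries that sum was mostly Cd74. Ptprc, Cd3e, Itgam, Csf3r, Cd207 and Fcer1g were each under 1 FPKM in every Co library and every b-KC Tom library. The part of these markers was not tested, nor was that of the endothelial genes in HF-SC Tom, of which 8 of 8 were higher than in HF-SC Co.

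Whether the change from Co differed between the cell types was tested as an interaction, the signed change in HF-SC less that in b-KC, so that a positive term also covers genes that fell less in HF-SC. For GFP, Klk11 rose more in HF-SC than in b-KC, by 1.26 (SE 0.28, adjusted p = 0.00823, limma), 1 of 10 members with a positive term against 7.31% of genes, and 0 had a negative one, against 5.22%. The call was lost without mouse 810 (adjusted p = 0.067) or 815 (adjusted p = 0.0756). For Klk5, which had a difference from Co of -0.20 in HF-SC and fell by 1.81 in b-KC, the term of 1.61 had an interval from 0.16 to 3.06 (adjusted p = 0.135). For Tom no member was past the threshold, against 10.3% of genes with a positive term and 5.58% with a negative one. At an unadjusted p under 0.05 there were 2 members, Klk5 and Klk11, and the share of all genes there was not counted. With mouse as a random block Klk11 was called for Tom (adjusted p = 0.0382, limma). Without mouse 817, 6 members had a positive term for GFP (16.0% of genes), of which Klk6, Klk7, Klk8, Klk9 and Klk11 differed from Co by more in HF-SC. The other was Klk5, with a difference from Co of 0.36 in HF-SC and -1.30 in b-KC. For Tom the term was positive for Klk8 and for Klk5, which fell less in HF-SC (15.0%), and negative for Klk10 and Klk13, which rose less there (9.70%).

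The make-up of the family shifted along with its level. FPKM is scaled by transcript length, so levels can be summed and compared between members. Among HF-SC the 10 members summed to 48.3 ± 12.9 FPKM for Co, 448 ± 192 for GFP and 169 ± 22.6 for Tom, and among b-KC to 142 ± 34.2, 521 ± 297 and 354 ± 123 (SD, n = 3 each). Every DKO* library had a larger sum than every Co library of its cell type. Klk5 made up 18% of the sum in HF-SC Co and 16.4% in b-KC Co, as means of 3 libraries, but 1.75% and 1.49% in HF-SC GFP and Tom, and 1.28% and 0.489% in b-KC GFP and Tom. Klk7 went from 17.5% to 9.18% and 4.77% in HF-SC, and from 25.7% to 6.56% and 3.39% in b-KC. Klk13 went the other way, from 0.398% to 14.7% and 15.5% in HF-SC, and from 0.606% to 15.8% and 19.4% in b-KC. In HF-SC GFP the smaller shares of Klk5 and Klk7 went with a larger sum. Mean Klk5 was at 8.38 FPKM there against 8.67 in Co, and mean Klk7 at 47.4 against 8.86. In b-KC GFP mean Klk7 was at 36.0 against 37.4.

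The order of the levels changed too. In b-KC Co, Klk11 led, followed by Klk7, Klk5 and Klk8, whose neighbouring libraries overlapped. Klk10 came next, below every library of Klk8, and Klk9, Klk6 and Klk13 were each at 2.28 FPKM or less. In b-KC Tom, Klk10 led at 144 ± 31.2 FPKM (SD, n = 3), above every library of Klk13, the second. In HF-SC GFP, Klk10 led at 158 ± 37.4 and its libraries lay above those of Klk13, the second, while the members from Klk13 down to Klk12 each overlapped the next. In HF-SC Co, Klk10 and Klk11, at 12.7 ± 3.28 and 12.3 ± 3.84, did not differ beyond their spread. Klk10 was the member with the largest share in 11 of the 12 DKO* libraries, and Klk11 led in the b-KC GFP library of mouse 817.

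**Figure D4:**
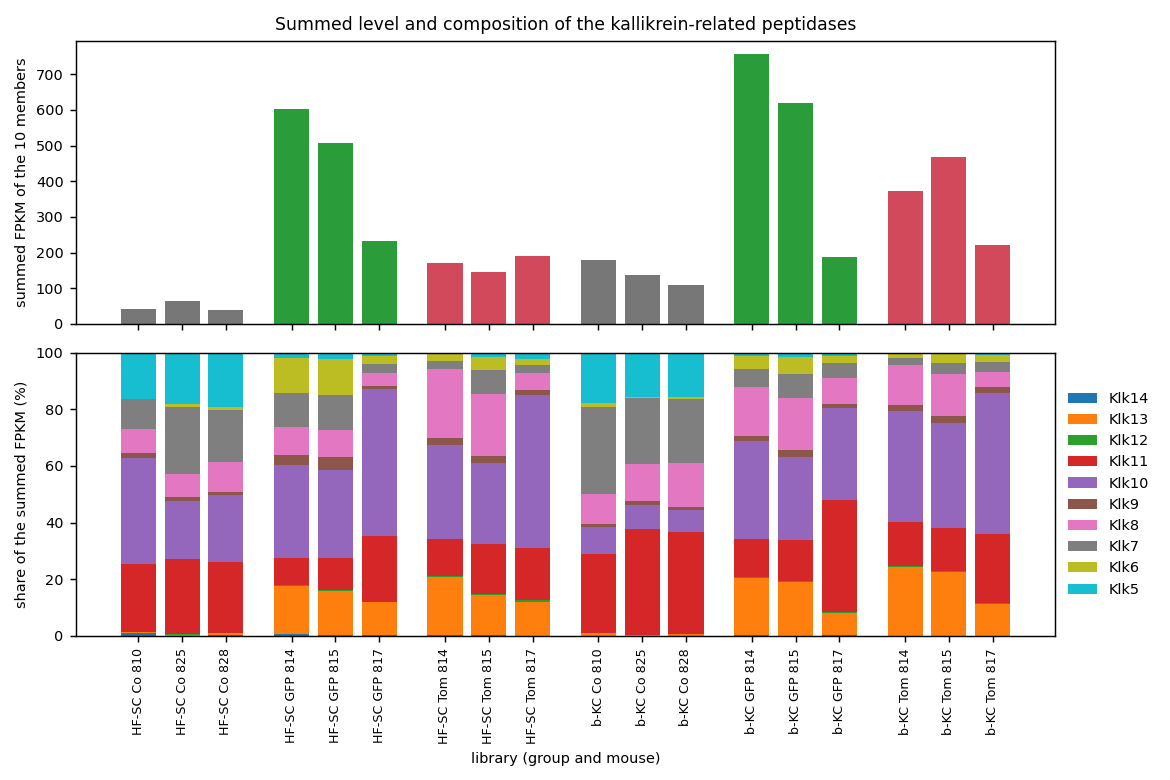
Summed FPKM of the 10 members (top) and the share of each member in that sum (bottom, %) in each of the 18 libraries, labelled by group and mouse. The sum is between 39.3 and 63 in HF-SC Co and between 145 and 602 in HF-SC of DKO* mice, and the share of Klk5 (cyan, at the top of the bars) is thin in all DKO* libraries.

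Across the 18 libraries the members did not all vary together. Of the 45 pairs, 13 had a Pearson r over 0.8 in log2(FPKM + 1), with Klk10 and Klk13 the closest (r = 0.97, Spearman rho = 0.93, and r = 0.97 without the 2 libraries farthest from the median). Klk6 and Klk9 followed (r = 0.96, rho = 0.92). Klk5 had a negative r with 7 of the other 9 members, down to -0.48 with Klk13. These are descriptions over 18 libraries that fall into 6 groups and share mice, so the differences between groups enter every r. Klk5 and Klk6, which are neighbours on the chromosome, had r = -0.12.

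Among 12741 tested genes outside the family, the pattern most like the mean of the 10 members was that of Cnfn (r = 0.98, rho = 0.96), which encodes the cornified envelope protein cornifelin. Next came Trex2, a DNA exonuclease of keratinocytes (r = 0.97), Il23a, the p19 subunit of IL-23 (r = 0.97), Alas1, the first enzyme of haem synthesis (r = 0.96), and Cd274, which encodes PD-L1 (r = 0.96). Klk10, the member with the highest mean FPKM, was most like Cxcl3, a neutrophil-attracting chemokine (r = 0.97), followed by the serine protease gene Prss12 (r = 0.97), Mab21l3 (r = 0.97), Ankk1 (r = 0.97) and the cornified envelope gene Sprr2b (r = 0.96). With the 2 libraries farthest from the median left out, these r values were between 0.95 and 0.98.

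Of 16 further kallikrein genes of the locus (Klk1, Klk4, Klk15 and 13 Klk1b genes), 9 were listed at 0 in all 18 libraries, which is not evidence of absence since keratin genes are listed at 0 in some libraries too. Of the other genes, 6 reached at most 0.174 FPKM. Klk1b22 passed the filter, at 0 to 3.97 FPKM, a range like that of Klk14, and it was called in no comparison.

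Inhibitors of kallikreins and of related proteases were counted in the same way. Of 13 genes on the list 11 were tested, and 8 were higher and 0 lower for GFP and 3 and 2 for Tom among HF-SC, against 5 and 1 and then 4 and 3 among b-KC. Spink6, Spink12 and Wfdc12, at most 0.594 FPKM in Co, passed the filter only through DKO* libraries, and without them 5 of 8 were higher and 0 lower for GFP and 3 and 2 for Tom among HF-SC, against 4 and 1 and then 3 and 3 among b-KC. The shares of all genes were 18.5% higher and 20.0% lower, 22.3% and 22.1%, 20.3% and 21.3%, and 22.6% and 23.3% in that order, and the counts for Tom in both cell types are close to these shares and are not read as a result about the list. The median difference was 1.46, 0.44, 0.89 and 0. Slpi, the secretory leukocyte protease inhibitor, was at 1.00 to 1.96 FPKM in HF-SC of Co and 97.9 to 250.2 for GFP, higher by 6.25 (adjusted p = 5.53e-08, limma), and it was higher in the other 3 comparisons too. Serpina3n and Serpinb6c, both serpin genes, were higher in all 4. Spink5, which encodes LEKTI, was at 21.7, 25.4 and 14.6 FPKM for Co in HF-SC and 80.8, 64.0 and 35.9 for GFP, higher by 1.46 (adjusted p = 0.0116, limma). In b-KC Tom it was at 5.89, 5.63 and 4.09 against 30.0, 26.2 and 19.7 in Co, and it fell by 2.08 (adjusted p = 0.00101, limma). Klk5 and its inhibitor were thus both low in b-KC Tom. Serpina12, or vaspin, an inhibitor of Klk7, fell in b-KC GFP by 2.35 and in b-KC Tom by 2.98 (adjusted p = 0.000227 and 1.86e-05, limma), and it was lower in HF-SC Tom. Cst6, an inhibitor of cysteine proteases, was lower in HF-SC Tom and b-KC Tom. Spint1, the matriptase inhibitor HAI-1, was higher in both GFP groups, Wfdc12 in all but HF-SC Tom, and Spink6 and Spink12 in HF-SC GFP. Between GFP and Tom, Cst6, Slpi, Spink5 and Spint1 were higher in GFP in both cell types.

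Proteases that act upstream gave counts in both directions. Of 11 genes 6 were tested, and 3 were higher and 1 lower for GFP and 2 and 1 for Tom among HF-SC, against 2 and 1 and then 1 and 1 among b-KC. Over all genes these comparisons called 18.5% to 22.6% higher and 20.0% to 23.3% lower, and with 6 genes the counts are not read as a result about the list. None of the called genes depended on DKO* libraries to pass the filter. St14, which encodes matriptase, known to cut kallikrein precursors, was at 11.5 to 15.5 FPKM for Co in HF-SC and 28.0 to 32.6 for GFP, higher by 1.06 (adjusted p = 2.83e-05, limma), and it was higher in b-KC GFP by 0.69 (adjusted p = 0.00147). Prss8, which encodes prostasin, was lower in all 4 comparisons, by 0.82 to 1.32. Ctsc, which encodes cathepsin C, was higher in all 4, by 3.92 and 3.34 in HF-SC GFP and Tom. Plau, the urokinase gene, was higher in HF-SC GFP and Tom.

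Genes for proteins that kallikreins cut or act through were counted next. Of 12 on the list 8 were tested, and 4 were higher and 0 lower for GFP and 2 and 2 for Tom among HF-SC, while in b-KC 1 was higher and 5 were lower in GFP and in Tom alike. Il1b and Mmp9 passed the filter only through DKO* libraries, with 0 and 1 of 6 Co libraries at 1 FPKM, and without them 2 of 6 were higher and 0 lower for GFP and 0 and 2 for Tom among HF-SC, against 0 and 5 for each of the b-KC groups. The shares of all genes called were 18.5% higher and 20.0% lower, 22.3% and 22.1%, 20.3% and 21.3%, and 22.6% and 23.3%. The median difference over the 8 was 0.86, 0.00278, -0.71 and -0.89. Cdsn, which encodes corneodesmosin, was at 42.4, 25.95 and 21.2 FPKM in b-KC Co and 1.32, 4.11 and 3.47 in b-KC Tom, and it fell by 2.98 (adjusted p = 0.000729, limma). Dsg1a, a desmoglein 1 gene, was at 284 to 331 FPKM for Co in b-KC, 41.5 to 91.2 for GFP and 46.1 to 62.1 for Tom, and it was lower in HF-SC Tom as well. Dsg1b was lower in both b-KC groups and higher in HF-SC GFP by 1.12 (adjusted p = 0.0137, limma). Dsc1, the desmocollin 1 gene, was at 6.77, 14.5 and 6.88 FPKM in HF-SC of Co and 72.5, 78.6 and 25.5 for GFP, higher by 2.45 (adjusted p = 0.000946, limma). The interaction of cell type and GFP was past the threshold with a positive term for Dsc1, Dsg1a, Dsg1b and Mmp9, of which Dsg1a had a difference of -0.20 in HF-SC (adjusted p = 0.68, limma) and -2.38 in b-KC, and Dsg1b was higher in HF-SC and lower in b-KC, and that of cell type and Tom for 0 of the 8. F2rl1, which encodes PAR2, was lower in the Tom fraction of HF-SC by 0.83, and in b-KC by 0.93 for GFP and 1.23 for Tom. Smpd1, whose enzyme works on barrier lipids, was lower in both b-KC groups. Il1b was higher in all 4 comparisons and Mmp9 in both of HF-SC.

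Other proteases of cornification were given by their counts. Of 9 genes, 4 were higher and 1 lower for GFP and 2 and 2 for Tom among HF-SC, against 3 and 1 and then 2 and 2 among b-KC. Without Prss27, which passed the filter only through DKO* libraries, the counts over 8 genes were 3 and 1 for GFP and 1 and 2 for Tom among HF-SC, and 2 and 1 and then 1 and 2 among b-KC. For Tom in both cell types the counts over the 9 equal about the share of all genes called in either direction, 22.1% to 23.3%, and for GFP the shares were 18.5% and 20.3% higher and 20.0% and 21.3% lower. Prss27, a membrane serine protease gene, was at 0.14 to 0.255 FPKM for Co in HF-SC and 28.2, 23.0 and 5.34 for GFP, and it was higher in all 4 comparisons, by 1.48 to 3.8. Blmh, which encodes bleomycin hydrolase, a peptidase that breaks down filaggrin, was higher in all 4 by 1.33 to 2.10. Casp14 was higher in HF-SC GFP by 2.84 (adjusted p = 0.00178, limma), and Ctsd, the cathepsin D gene, in both GFP groups. Capns2, a calpain subunit gene, was lower in all 4 by 1.11 to 1.24, Capn1 was lower in HF-SC Tom and Tpp1 in b-KC Tom. The colour map of the 4 lists gives each gene beside its neighbours.

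**Figure D5:**
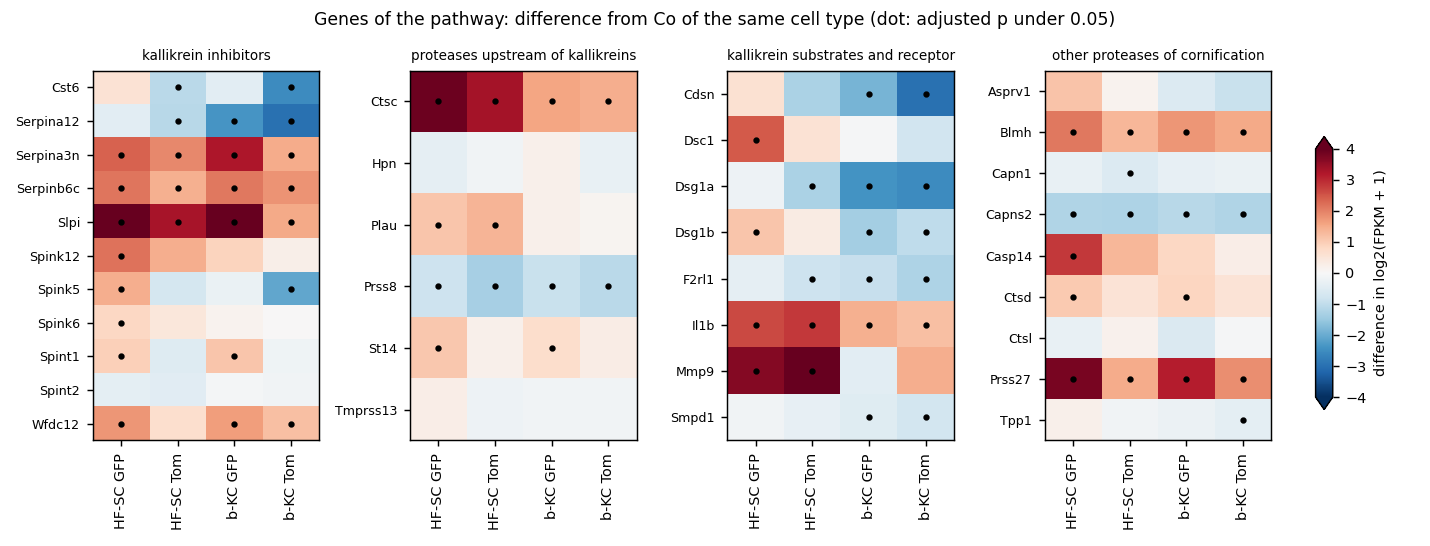
Difference from Co of the same cell type in log2(FPKM + 1), red for higher and blue for lower, for the tested genes of 4 lists (rows) in GFP and in Tom of HF-SC and of b-KC (columns), with a dot for an adjusted p under 0.05. Slpi, Serpina3n, Serpinb6c, Ctsc, Il1b, Blmh and Prss27 are higher with a dot in every column, Prss8 and Capns2 are lower with a dot in every column, and the colour scale ends at -4 and 4.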

How the data were processed

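Polyadenylated RNA of sorted ear skin cells was amplified (SMART-Seq v4, Nextera XT) and sequenced as 51-base single reads without strand. The deposited table holds FPKM per gene, which the authors made with TopHat2 (2.0.10), Bowtie (1.0.0), SAMtools and Cufflinks (2.2.1 per the labels) against mm9, with 2 mismatches and reads of several hits allowed; the labels also name mm10. Reads shared between genes are split by Cufflinks, and FPKM carry no counts.

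Tests used log2(FPKM + 1), on which changes of low genes come out too small, for genes that reached 1 FPKM in 3 or more of 18 libraries. limma (3.58.1, R 4.3.3) was fitted to 6 group means over all libraries with a trended prior, and p-values were adjusted by Benjamini-Hochberg within each of 9 comparisons over all 12751 genes. Python 3 scripts made the other tables. The fit was tested on simulated data. Depth was read from the steps of low values in 6914 genes with 1 transcript, where 80.7% to 86.4% of values lay within 0.1 of a whole read; since many did not, no count test was run.

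Groups came from the sample titles and genotype labels. The mouse numbers pair libraries of the same animal: deviations from group means correlated at 0.0838 to 0.591 (HF-SC GFP and Tom), 0.242 to 0.687 (b-KC GFP and Tom) and 0.204 to 0.317 (the Co cell types). Co and DKO* share no mouse. The members and the gene lists were chosen with earlier results of these data known, and 1 gene of the substrate list is not reported here. All members were named, then the list genes called in at least 1 comparison with Co, and the 5 genes most correlated with the family mean and with its most abundant member. Alternatives were a pseudocount of 0.1, no filter, stricter thresholds, the compared groups alone, no trend, median-ratio scaling, mouse as a block and each mouse left out. Gene positions are from the NCBIM37 annotation and promoters from RefSeq.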

Additional observations from a re-analysis of the deposited data

Results flagged for a closer look

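The change of Klk11 from Co to GFP differed between the cell types by the interaction term, 1.26 larger on the log2 scale in HF-SC than in b-KC (SE 0.28, adjusted p = 0.00823, limma). The change itself was 2.16 in HF-SC and 0.90 in b-KC, all 3 GFP libraries lay above all 3 Co libraries in both, and Klk11 started lower in HF-SC, at 12.3 ± 3.84 FPKM in Co against 46.9 ± 6.17 in b-KC (SD, n = 3 each). The GFP levels, 56.7 ± 2.53 and 88.6 ± 13.6 FPKM, did not overlap either. The adjusted p was 0.067 without mouse 810 and 0.0756 without mouse 815, and over all alternatives it lay between 0.00218 and 0.0756.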

How the results depend on the processing

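Of 1173 values of single members under the alternatives, 1007 kept their direction and their side of the threshold, 83 lost the call, 52 gained it and 31 changed sign. The stricter thresholds left 5 of 8 calls for HF-SC GFP against Co, 2 of 7 for HF-SC Tom, 3 of 7 for b-KC GFP, 3 of 6 for b-KC Tom, and 0 for HF-SC GFP against Tom, for the Co cell types and for the interaction with GFP. Without the filter on low values the calls were 4 for HF-SC Tom against Co, 1 for HF-SC GFP against Tom and 1 for the Co cell types. HF-SC GFP against Tom also had 1 call with rescaled libraries, with a pseudocount of 0.1 and with only the groups compared, which gave 5 calls for the Co cell types and 1 for the interaction with Tom. With mouse as a random block there were 5 calls for HF-SC GFP against Tom, 1 for the interaction with Tom (Klk11, adjusted p = 0.0382) and Klk8 in addition for the Co cell types (adjusted p = 0.00554). As a fixed block it gave 1 for HF-SC GFP against Tom and 6 for the Co cell types; the block changed no call but these and those of Klk7, Klk8 and Klk9 against Co given above. Leaving out 1 mouse moved the calls between 3 and 8 for HF-SC Tom and for b-KC Tom against Co, 0 and 10 for HF-SC GFP against Tom, 0 and 4 for b-KC GFP against Tom, 1 and 6 for the Co cell types, and 0 and 6 (GFP) or 0 and 4 (Tom) for the interactions. The highest of these counts were all reached without mouse 817, and those fits rest on 2 DKO* mice. For the Co cell types all 3 Co mice stayed in that fit, and the members' differences did not change. The counts in this paragraph show how calls moved, and the shares of all genes are not set beside them. No value that changed sign was called.

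With rescaled libraries Klk12 was at 0.00607 for b-KC GFP against Tom and 4.76e-05 for the Co cell types, and the interaction with Tom was 0.0169 for Klk6 and 0.0404 for Klk9. With a pseudocount of 0.1 that interaction was 0.69 for Klk6, 0.42 for Klk9, 0.15 for Klk12 and 0.44 for Klk13. With 1 mouse left out, values ran from -0.48 to 0.36 for Klk5 in HF-SC GFP, from -0.50 to 0.27 for Klk7 in HF-SC Tom and from -0.70 to 0.46 for Klk7 in b-KC GFP, each against Co. For b-KC GFP against Tom they ran from -0.16 to 0.52 for Klk9, -0.40 to 0.45 for Klk10, -0.23 to 0.15 for Klk12 and -0.28 to 0.46 for Klk13. Klk12 ran from -0.10 to 0.0494 between the Co cell types, and Klk10 from -0.40 to 0.30 in the interaction with GFP. In the interaction with Tom, Klk6 ran from -0.62 to 0.27, Klk9 from -0.31 to 0.31, Klk12 from -0.30 to 0.20 and Klk14 from -0.15 to 0.11. The cause of these changes was not tested. Depth limits Klk12 and Klk14, and Klk6 and Klk13 in HF-SC of Co, where values correspond to a few reads.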
